A study of Mus musculus with 16 samples.

Results

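TRRAP, the protein whose gene was deleted in these mice, is a shared scaffold of 2 families of histone acetyltransferase complexes, SAGA and TIP60. The RNA of the genes for its partner subunits was followed here in 16 libraries of the mouse forebrain. The 39 subunit genes were chosen by name as partners of TRRAP in these complexes, 22 in SAGA and 17 in TIP60, and all 39 were found among the 53801 genes of the count table.

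SAGA is a coactivator that carries an acetyltransferase module built on KAT2A or its paralog KAT2B, which mainly acetylate histone H3, and a deubiquitinase module built on USP22, which removes ubiquitin from histone H2B. A core of SUPT, TADA and TAF proteins holds these modules together, and splicing factors form a further part of the complex. TIP60 is built on KAT5, which mainly acetylates histones H4 and H2A, and on the ATPase EP400, which exchanges H2A for the variant H2A.Z. Both complexes are recruited to promoters by transcription factors, in part through TRRAP. Several subunits serve other machines too: TAF9, TAF10 and TAF12 belong to TFIID, KAT2A and TADA3 to the ATAC complex, and RUVBL1, RUVBL2, YEATS4 and DMAP1 to the SRCAP or INO80 remodelers.

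RNA came from the cortex and striatum of 9 mice of the strain C57BL6/J-129sv at 10 days of age. Controls were Trrap Fl/+; Camk2-Cre tg, with 1 floxed and 1 wild-type allele, and mutants, called Trrap-FBΔ, were Trrap Fl/Fl; Camk2-Cre tg. The Cre transgene was thus shared by both groups, and the controls also carried a floxed allele that it could recombine. The study's methods describe deletion in glutamatergic (pyramidal) neurons of the forebrain, so other cells of the tissue keep the gene, and in such bulk RNA fewer cells of a type and less RNA per cell cannot be told apart. Each tissue had 4 control and 4 Trrap-FBΔ libraries. Mice 57, 59, 60 and 61 gave both Trrap-FBΔ tissues and mice 58, 63 and 64 both control tissues, while control mouse 55 gave a cortex and control mouse 65 a striatum. By sex, 2 of the 4 control cortices were female, as was 1 of the 4 control striata and 3 of the 4 libraries of each Trrap-FBΔ group.

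Between 28743866 and 48761429 reads were counted per library. Taf9 had between 12 and 24 reads per library, and every other subunit gene had between 285 and 18191. Values per library are given in the order of the mouse numbers, as CPM, the count scaled to a common library size with TMM factors. Trrap, counted over its whole length, was at 173, 156, 136 and 146 CPM in the control cortices and at 121, 137, 134 and 146 CPM in the Trrap-FBΔ cortices, with overlapping groups (log2 fold change -0.18 ± 0.075, SE, adjusted p = 0.083). In the striatum it was at 151, 139.9, 150.0 and 142 CPM and 148, 135, 144 and 138 CPM, again overlapping (log2 fold change -0.04 ± 0.048, adjusted p = 0.52). These counts over the whole gene did not separate the groups, and each direction below is that of the libraries labelled Trrap-FBΔ against those labelled control.

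Markers of cell types also differed between the groups, by the test used below. It called 33.3% of all genes in the cortex (17.6% lower) and 30.2% in the striatum (15.8% lower). All 8 microglia markers, all 7 endothelial markers, all 9 oligodendrocyte lineage markers and 9 of 10 immature neuron markers were lower in the Trrap-FBΔ cortex, and the summed immature neuron markers were between 4795 and 6463 CPM in controls and between 2440 and 3023 CPM in Trrap-FBΔ mice. In the striatum 5 of 8 microglia, 8 of 10 immature neuron and 5 of 8 excitatory neuron markers were lower. So were 2 of 7 endothelial (28.6%) and 3 of 9 oligodendrocyte lineage markers (33.3%), against 15.8% of all genes lower there. Every endothelial and oligodendrocyte lineage marker had a negative log2 fold change in the striatum, whether called or not. Astrocyte markers went both ways, with 2 of 8 higher and 2 lower in the cortex and 2 higher and 1 lower in the striatum. Of 8 interneuron markers 1 was higher in each tissue and 1 lower in the striatum, and 2 of 8 excitatory markers were lower in the cortex. The summed excitatory markers of the striatum were between 1338 and 1940 CPM in controls and between 951 and 1289 CPM in Trrap-FBΔ mice. Between the control tissues, 7 of 8 excitatory neuron markers were lower in the striatum, among them Slc17a7, the vesicular glutamate transporter of cortical neurons, and Slc17a6 was higher. Of 10 markers of striatal projection neurons, Tac1 was higher and Foxp1 lower in the control striatum, and 8 were not called, the dopamine receptor gene Drd1 among them. Ppp1r1b, the DARPP-32 gene of striatal projection neurons, was at 19.4, 97.5, 299 and 88.98 CPM in the control striata and at 51.8, 178, 185 and 58.4 CPM in the control cortices, so this marker did not separate the tissues. The summed microglia markers were between 309 and 345 CPM in control and between 224 and 278 CPM in Trrap-FBΔ cortices. Between the genotypes, 0 of the 10 striatal projection neuron markers, 0 of 5 choroid plexus and 0 of 5 blood markers were called in either tissue, and none of the markers was at 0. Of the 10 striatal projection neuron markers only 1 had a positive log2 fold change in each tissue (medians -0.19 in the cortex and -0.372 in the striatum). All 5 choroid plexus markers were positive in the striatum (median 0.586) and 2 in the cortex (median -0.172). The blood medians were -0.062 and -0.086. The part of these shifts in the changes of the subunit genes was not tested.

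Promoter sequence gives a first view of the genes that moved most clearly, those with an adjusted p under 0.01 in both tissues (values below). The stretches are the 200 bases before a RefSeq start on GRCm38, written 5′ to 3′ along the gene, and a GC box, the letters GGGCGG on either strand and the binding motif of SP family factors, stands in capitals. For Morf4l2, which has several listed starts, the stretch farthest upstream is shown. Usp22, the other gene of this kind, was not matched to a stretch.
Atxn7l3, GRCm38 chr11:102296630-102296829, minus strand: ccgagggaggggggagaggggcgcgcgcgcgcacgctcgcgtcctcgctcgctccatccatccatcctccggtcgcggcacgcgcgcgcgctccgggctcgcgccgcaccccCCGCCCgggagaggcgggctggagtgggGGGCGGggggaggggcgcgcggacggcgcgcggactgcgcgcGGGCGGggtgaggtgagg
Morf4l2, GRCm38 chrX:136743687-136743886, minus strand: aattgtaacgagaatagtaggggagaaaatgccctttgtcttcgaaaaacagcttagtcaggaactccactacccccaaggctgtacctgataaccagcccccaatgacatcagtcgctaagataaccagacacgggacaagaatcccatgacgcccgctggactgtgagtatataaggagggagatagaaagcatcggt
Supt7l, GRCm38 chr5:31526763-31526962, minus strand: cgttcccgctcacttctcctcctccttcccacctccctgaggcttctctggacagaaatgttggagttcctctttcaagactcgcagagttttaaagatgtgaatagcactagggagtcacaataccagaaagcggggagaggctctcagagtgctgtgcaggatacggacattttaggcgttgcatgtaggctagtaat
Epc2, GRCm38 chr2:49451286-49451485, plus strand: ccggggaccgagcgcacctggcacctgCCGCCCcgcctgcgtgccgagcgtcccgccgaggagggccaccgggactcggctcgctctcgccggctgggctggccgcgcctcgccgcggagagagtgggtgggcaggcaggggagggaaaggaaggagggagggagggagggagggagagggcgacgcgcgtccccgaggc
Yeats4, GRCm38 chr10:117224508-117224707, minus strand: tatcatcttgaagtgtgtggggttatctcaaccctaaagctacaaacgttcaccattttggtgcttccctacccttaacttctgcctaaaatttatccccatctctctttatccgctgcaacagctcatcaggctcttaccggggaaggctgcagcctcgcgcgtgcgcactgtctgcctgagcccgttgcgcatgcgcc
Dmap1, GRCm38 chr4:117682226-117682425, minus strand: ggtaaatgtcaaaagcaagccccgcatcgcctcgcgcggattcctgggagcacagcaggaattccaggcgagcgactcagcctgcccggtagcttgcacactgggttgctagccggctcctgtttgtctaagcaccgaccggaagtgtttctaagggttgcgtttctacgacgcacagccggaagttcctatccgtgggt

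Of the genes lower in Trrap-FBΔ mice, Atxn7l3 held 3 GC boxes. The 4 listed stretches of Morf4l2, also lower, held 0, 1, 2 and 0 (the last is the one shown). Of the higher genes, Epc2 held 1 and Supt7l, Yeats4 and Dmap1 held 0. Other subunit genes rose in both tissues but missed the cut for the stretches shown. Among them, the 2 stretches of Taf5l held 5 and 1 GC boxes, Taf6l held 1, and Sgf29 and Atxn7l2 held 0. GC boxes were thus present in genes of both directions. Among all subunits, 32 of 39 genes matched 44 such stretches, and 25 of these (56.8%) held a GC box, against 31.0% of all 32851 RefSeq stretches. The subunit stretches were also richer in G and C, with a median of 60.5% against 53.0%. The share was 54.2% of 24 stretches in SAGA and 60% of 20 in TIP60. The CCAAT box, searched as CCAAT on both strands, was found in 20.8% of the SAGA and 50% of the TIP60 stretches, against 29.3% of all. The E box CACGTG was present in 13.6% of the subunit stretches and 5.3% of all, and the cyclic AMP response element TGACGTCA in 4.5% and 1.5%. The 4.5% stands for 2 overlapping stretches of Ing3 that hold the same single site, so it gives no excess over genes. Sites of different motifs were counted separately where they overlapped. Several stretches belong to the same gene, and a match describes only these letters.

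The subunit genes covered a wide range of levels in control tissue, where levels between genes are compared as CPM per kb of exon. Usp22 was the highest in both control tissues, at 90.8 ± 6.23 (SD, n = 4) CPM per kb in the cortex and 70.5 ± 5.002 in the striatum. Morf4l2, an MRG-domain subunit of TIP60, followed at 55.7 ± 2.64 and 60.3 ± 2.01 CPM per kb, and Atxn7l3, the activating partner of USP22, at 55.6 ± 3.27 and 40.9 ± 0.859. The cortical levels of Morf4l2 and Atxn7l3 lay within their spread of each other, while in the striatum they were apart. Yeats4 at 36.3 ± 1.43 and 33.4 ± 3.10, Meaf6 at 25.99 ± 0.780 and 25.95 ± 0.666 and Kat2a at 24 ± 1.39 and 21.5 ± 1.51 CPM per kb came next.

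The acetyltransferase Kat5 was at 16.7 ± 0.459 CPM per kb in the control cortex and 16.1 ± 0.207 in the striatum, and the ATPase Ep400 at 6.76 ± 0.284 and 6.72 ± 0.556. Kat2b stood lower, at 4.01 ± 0.481 and 4.84 ± 0.312 CPM per kb. At the low end were Supt7l at 1.93 ± 0.214 and 2.24 ± 0.227 and Taf9 at 0.269 ± 0.0350 and 0.183 ± 0.0279 CPM per kb. Over a complex, the median level was 6.55 CPM per kb for SAGA and 7.67 for TIP60 in the cortex, and 5.86 and 8.10 in the striatum. Taf9 is uncertain, since 1564 bases of its exons overlap those of Ak6 on the same strand and 68.7% of its 50-base words occur in other transcripts. That share was 49.4% in Ruvbl1, 15.4% in Taf5l, 11.2% in Morf4l2, 9.84% in Morf4l1, 7.28% in Kat2b, 5.55% in Taf10, 4.14% in Ep400 and 3.16% in Supt7l, in part through pseudogenes, and at most 3% in the other 30 genes. Only uniquely mapped reads were counted, and how reads from such stretches were divided between the genes was not examined.

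**Figure D1:**
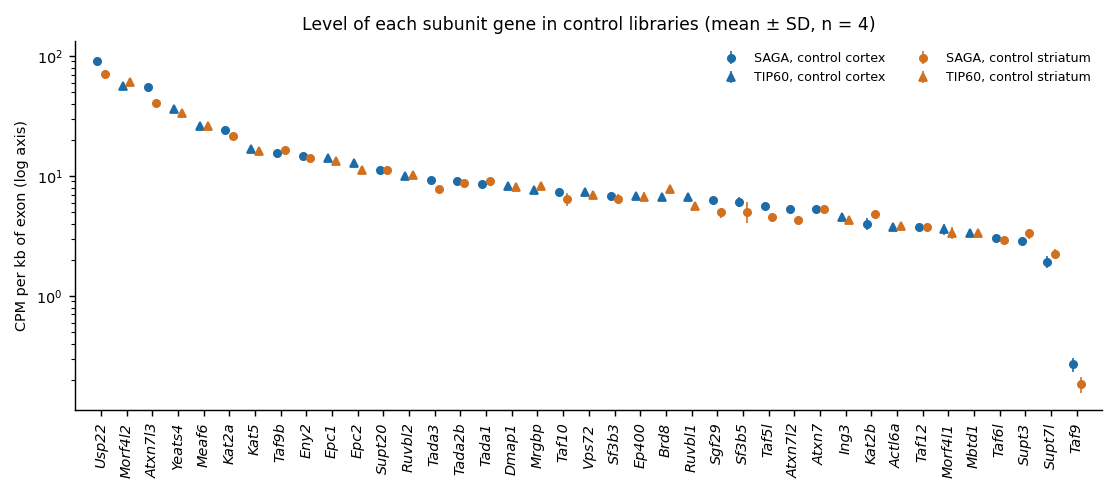
Level of each subunit gene in control libraries, as CPM per kb of exon on a log axis (mean ± SD, n = 4 libraries per tissue), ordered by the level in the cortex. Circles stand for SAGA and triangles for TIP60, blue for the cortex and orange for the striatum. Usp22, Morf4l2 and Atxn7l3 lead in both tissues and Taf9 lies far below the rest.

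Between the control tissues, 10 of the 39 subunit genes differed by edgeR's quasi-likelihood test (adjusted p under 0.05, Benjamini-Hochberg over all genes tested), against 40.4% of all 18284 genes tested. Lower in the striatum were 8, against 20.1% of all genes, and higher were 2, against 20.3%. SAGA gave 7 of the 10, with 6 lower. Of the deubiquitinase module, Usp22 (log2 difference -0.36 ± 0.073, striatum over cortex, adjusted p = 0.00279), Atxn7l3 (-0.44 ± 0.054, adjusted p = 0.000125) and Atxn7l2 (-0.31 ± 0.062, adjusted p = 0.00264) were lower in the striatum. Sgf29 and Tada3 of the acetyltransferase module, Taf5l of the core and the TIP60 genes Epc2 and Ruvbl1 were lower too, with log2 differences between -0.34 and -0.18. Higher in the striatum were Brd8 of TIP60, a bromodomain protein (0.21 ± 0.048, adjusted p = 0.0053), and Kat2b (0.28 ± 0.09, adjusted p = 0.032). Its paralog Kat2a had a log2 difference of -0.16 ± 0.065 (adjusted p = 0.079) and was lower with the mouse as a block (-0.19, adjusted p = 0.038), a fit that rests on the 3 control mice with both tissues. With upper-quartile normalization 5 subunit genes were higher and 7 lower in the striatum. The call of Kat2b was lost without any 1 of the control cortices of mice 58, 63 and 64 or the control striata of mice 58 and 65 (adjusted p up to 0.092), and that of Ruvbl1 without the control cortex of mouse 64 (adjusted p = 0.053).

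The comparison of the genotypes asks whether loss of TRRAP from part of the cells goes along with a change in the RNA of its partners. A differentially expressed gene (DEG) is one with an adjusted p under 0.05 in edgeR's quasi-likelihood test of 4 Trrap-FBΔ against 4 control libraries. In the cortex 17 of the 39 subunit genes were DEGs, 43.6%, against 33.3% of all 18268 genes tested. In the striatum 17 of 39 were, against 30.2% of 18872. Most moved up: 13 rose and 4 fell in the cortex, where 15.7% of all genes were higher and 17.6% lower, and 12 rose and 5 fell in the striatum, where 14.4% were higher and 15.8% lower. The changes were small: cortical log2 fold changes ran from -0.61 to 0.50, and striatal ones from -0.40 to 0.47. Taken without sign, the median log2 fold change of the 39 genes came to 0.13 for cortex and 0.144 for striatum. Among the 17938 genes tested in both tissues these medians were larger, at 0.183 and 0.179. The higher shares of DEGs therefore do not stand for larger changes in the subunit genes. The part of read depth in these shares was not tested.

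Of the 39 genes, 11 were DEGs in both tissues and moved the same way in each, against 19.0% of the 17938 genes tested in both. The 8 that rose were Sgf29, Supt7l, Taf5l, Taf6l and Atxn7l2 of SAGA and Epc2, Dmap1 and Yeats4 of TIP60. The 3 that fell were Usp22, Atxn7l3 and Morf4l2, the 3 genes with the highest level per kb in the control tissues. In 23 genes the call was made in at least 1 tissue, against 45.1% of the genes tested in both, and in 16 in neither. None was called in opposite directions, as were 28 of the 17938 genes. Both tissues came mostly from the same mice, so agreement between them is not independent replication. The Trrap-FBΔ and control libraries did not overlap for 15 of 39 cortical and 19 of 39 striatal comparisons, while groups of all genes tested did not overlap in 32.7% and 31.6%. For each of the 11 genes they did not overlap in either tissue. These genes were picked by a test of the same libraries, so this is no separate support for the calls.

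**Figure D2:**
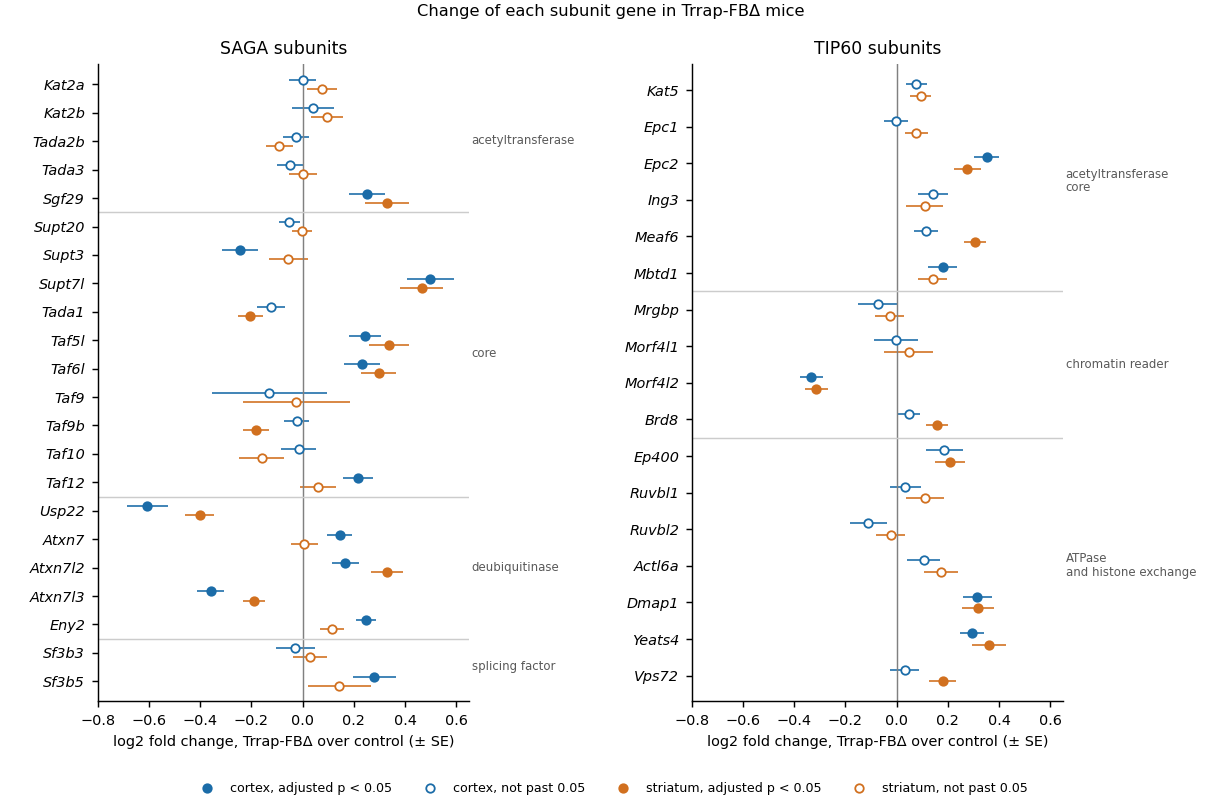
Log2 fold change of each subunit gene, Trrap-FBΔ over control (± SE), in the cortex (blue) and the striatum (orange), with SAGA on the left and TIP60 on the right, split into modules by grey lines. The label chromatin reader names a group and is not a statement about each gene in it. Filled points have an adjusted p under 0.05 (4 against 4 libraries), and Usp22, Atxn7l3 and Morf4l2 lie to the left of 0 and Supt7l farthest to the right in both tissues.

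The complexes were next set side by side. In the cortex 12 of 22 SAGA genes were DEGs (54.5%, against 33.3% of all genes), 9 higher and 3 lower, with a median log2 fold change of -0.008 over all 22. Of TIP60, 5 of 17 were DEGs (29.4%, below the share of all genes), 4 higher and 1 lower, with a median of 0.077. In the striatum 9 of 22 SAGA genes (40.9%, 5 higher, 4 lower, median 0.018) and 8 of 17 TIP60 genes (47.1%, 7 higher, 1 lower, median 0.141) were DEGs, against 30.2% of all genes. The larger SAGA share in the cortex depended on the threshold: at an adjusted p under 0.01, 4 of 22 SAGA and 4 of 17 TIP60 genes were called there, against 18.3% of all genes, and 6 of 22 and 5 of 17 in the striatum, against 15.1%. The median over all genes tested was 0.001 (cortex) or -0.006 (striatum). Of the TIP60 genes called, Morf4l2 was the one that fell in either tissue. Whether the complexes differ was not tested. Without the control cortex of mouse 58, 11 subunit genes were DEGs in the cortex and 7 of them in SAGA. Of the 17 calls in the cortex, 9 held with any 1 library left out (Epc2, Morf4l2, Dmap1, Yeats4, Supt7l, Taf5l, Usp22, Atxn7l3 and Eny2), as did 13 of 17 in the striatum, all but those of Brd8, Ep400, Vps72 and Taf9b.

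The deubiquitinase module of SAGA was the only module of the 7 in which every gene was a DEG in the cortex. There 5 of 5 were called, against 33.3% of all genes, and they moved in opposite directions. At an adjusted p under 0.01 the cortical calls of Atxn7 and Atxn7l2 were lost. In the striatum 3 of the 5 genes were DEGs (60%, against 30.2% of all genes). Usp22 (chromosome 11, 61151785 to 61175055 on GRCm38, as for all positions here), the ubiquitin protease, fell most of all 39 genes. In the cortex Usp22 was at 470.3, 430.2, 407 and 467 CPM in controls and at 255, 291, 283 and 337 CPM in Trrap-FBΔ mice. Striatal values were 354, 316, 373 and 335 CPM in controls and 258, 261, 254 and 269 CPM in mutants. All Trrap-FBΔ libraries lay below all controls, and the log2 fold change was -0.61 ± 0.082 (adjusted p = 0.000297) in the cortex and -0.40 ± 0.058 (adjusted p = 0.000916) in the striatum. Atxn7l3 (chromosome 11, 102289300 to 102296631) is needed for the activity of the protease. The control cortices had Atxn7l3 at 243, 212, 227 and 236 CPM and the Trrap-FBΔ cortices at 181, 172, 177 and 186 CPM. For the striatum, 168, 166, 174 and 166 CPM in controls compared with 147, 144, 146 and 155 CPM in Trrap-FBΔ mice. Again the groups were apart, and the log2 fold change was -0.36 ± 0.052 (adjusted p = 0.000446) in the cortex and -0.19 ± 0.042 (adjusted p = 0.00777) in the striatum.

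The other 3 genes of the module rose in the cortex. Atxn7l2 (chromosome 3, 108202222 to 108210934) is a paralog of Atxn7, the gene of spinocerebellar ataxia type 7, whose product anchors the module to the complex. Cortical Atxn7l2 measured 26.1, 26.4, 25.4 and 27.02 CPM in controls and 31.04, 28.6, 28.97 and 28.97 CPM in mutants. The control striata had 20.8, 23.1, 20.98 and 19.4 CPM and the Trrap-FBΔ striata 27.4, 25.4, 26.8 and 26.3 CPM. The Trrap-FBΔ libraries were higher throughout, and the log2 fold change was 0.17 ± 0.053 (adjusted p = 0.032) in the cortex and 0.33 ± 0.063 (adjusted p = 0.00362) in the striatum. Atxn7 itself rose in the cortex (0.145 ± 0.048, adjusted p = 0.037) and had a log2 fold change of 0.006 ± 0.053 (adjusted p = 0.94) in the striatum. Eny2, which the module shares with the mRNA export complex TREX-2, had 0.25 ± 0.04 (adjusted p = 0.00088) in the cortex and 0.12 ± 0.047 (adjusted p = 0.084) in the striatum. The cortical call of Atxn7 was lost with sex as a covariate (adjusted p = 0.051) and without any 1 of 7 of the 8 libraries, all but that of Trrap-FBΔ mouse 61 (adjusted p up to 0.089). That of Atxn7l2 was lost without the libraries of mice 55, 57, 58, 60, 63 and 64, taken 1 at a time (adjusted p up to 0.074). Of 4 alternative parts of such modules, Usp27x, Usp51, Atxn7l1 and Atxn7l3b, only Atxn7l3b was a DEG in both tissues, at 0.19 ± 0.05 and 0.175 ± 0.05, opposite in sign to Atxn7l3, and Usp51 fell in the striatum (-0.37 ± 0.13, adjusted p = 0.049).

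**Figure D3:**
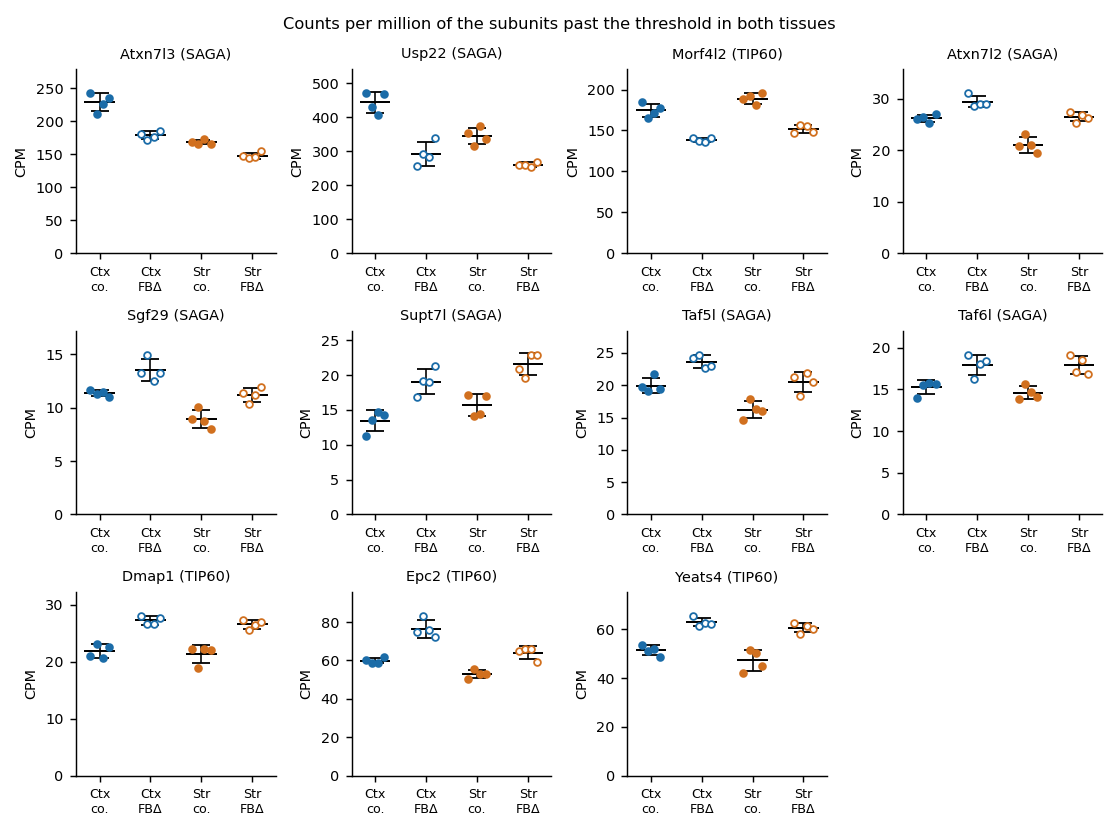
CPM of the 11 subunit genes that were DEGs in both tissues, per library, in the cortex (Ctx, blue) and striatum (Str, orange) of control (co., filled) and Trrap-FBΔ (FBΔ, open) mice, with the mean and SD of 4 libraries as black lines. In each panel and tissue the open points lie all above or all below the filled points.

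Of the 5 genes of the acetyltransferase module of SAGA, Sgf29 alone was a DEG, in both tissues. That is 20% in each tissue, against 33.3% (cortex) and 30.2% (striatum) of all genes. In the cortex Kat2a was at 77.95, 88.2, 81.1 and 86.8 CPM in controls and at 80.3, 85.3, 79.7 and 88.99 CPM in Trrap-FBΔ mice. Striatal values were 80.03, 67.7, 76.97 and 74.2 CPM in controls and 81.1, 74.9, 76.5 and 82.5 CPM in mutants. The Kat2a groups overlapped in both tissues, and the log2 fold change was 0.000 ± 0.052 (adjusted p = 0.99) in the cortex and 0.08 ± 0.058 (adjusted p = 0.35) in the striatum. The control cortices had Kat2b at 22.9, 19.2, 17.8 and 18.1 CPM and the Trrap-FBΔ cortices at 20.3, 20.6, 20.4 and 18.8 CPM. For the striatum, 24.1, 21.9, 22.8 and 25.4 CPM in controls compared with 24.4, 26.8, 24.1 and 25.2 CPM in Trrap-FBΔ mice. Kat2b overlapped too, and the log2 fold change was 0.04 ± 0.082 (adjusted p = 0.74) in the cortex and 0.09 ± 0.062 (adjusted p = 0.28) in the striatum. Tada2b and Tada3, adaptors that bind the enzyme, had log2 fold changes between -0.09 and 0.002 and no call in either tissue. Sgf29 (chromosome 7, 126649309 to 126672925), whose product reads methylated histone H3, rose. Cortical Sgf29 measured 11.7, 11.3, 11.5 and 11 CPM in controls and 13.3, 14.98, 12.5 and 13.3 CPM in mutants. The control striata had 8.97, 10.1, 8.73 and 7.97 CPM and the Trrap-FBΔ striata 11.4, 10.4, 11.2 and 11.9 CPM. All Trrap-FBΔ libraries were above all controls, and the log2 fold change was 0.25 ± 0.069 (adjusted p = 0.016) in the cortex and 0.33 ± 0.085 (adjusted p = 0.015) in the striatum. The call in the cortex was lost without the control cortex of mouse 64 (adjusted p = 0.053) and that in the striatum with sex as a covariate (adjusted p = 0.067).

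Of the 10 core genes of SAGA, each tissue had 5 DEGs (50%), in both directions, against 33.3% (cortex) and 30.2% (striatum) of all genes. Supt7l (chromosome 5, 31514564 to 31527807), which pairs with TAF10 through a histone fold, had the largest rise of the 39 genes in both tissues. In the cortex Supt7l was at 11.3, 13.6, 14.7 and 14.3 CPM in controls and at 16.8, 19.1, 19.1 and 21.4 CPM in Trrap-FBΔ mice. Striatal values were 17.1, 14.1, 14.4 and 16.9 CPM in controls and 20.8, 19.6, 22.9 and 22.96 CPM in mutants. The groups were apart, and the log2 fold change was 0.50 ± 0.092 (adjusted p = 0.00188) in the cortex and 0.47 ± 0.084 (adjusted p = 0.00285) in the striatum. Taf5l (chromosome 8, 123996318 to 124021397) and Taf6l (chromosome 19, 8774487 to 8786417) are the SAGA forms of the TFIID subunits TAF5 and TAF6. The control cortices had Taf5l at 19.7, 19.1, 21.7 and 19.4 CPM and the Trrap-FBΔ cortices at 24.2, 24.8, 22.7 and 23.01 CPM. For the striatum, 14.6, 17.8, 16.4 and 16.1 CPM in controls compared with 21.2, 18.3, 21.9 and 20.5 CPM in Trrap-FBΔ mice. Taf5l was higher in every Trrap-FBΔ library, and the log2 fold change was 0.24 ± 0.062 (adjusted p = 0.011) in the cortex and 0.34 ± 0.078 (adjusted p = 0.00946) in the striatum. Cortical Taf6l measured 14, 15.5, 15.8 and 15.7 CPM in controls and 19.1, 16.2, 18.1 and 18.4 CPM in mutants. The control striata had 13.9, 15.7, 14.8 and 14.1 CPM and the Trrap-FBΔ striata 19.2, 17.1, 18.6 and 16.9 CPM. Taf6l was likewise higher throughout, and the log2 fold change was 0.23 ± 0.07 (adjusted p = 0.024) in the cortex and 0.30 ± 0.067 (adjusted p = 0.00856) in the striatum. The cortical call of Taf6l was lost without the libraries of mice 55, 57, 58 and 60, taken 1 at a time (adjusted p up to 0.057). Taf6 and Taf5 themselves were not DEGs, with log2 fold changes of 0.05 and -0.07 in the cortex and 0.07 and -0.17 in the striatum.

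The other core genes changed in at most 1 tissue. Taf12 rose in the cortex (0.22 ± 0.059, adjusted p = 0.016), and without the control cortex of mouse 58 the call was lost (adjusted p = 0.055). Supt3 fell there (-0.25 ± 0.07, adjusted p = 0.019), which was lost without the control cortex of mouse 64 (adjusted p = 0.060). In the striatum Tada1 (-0.20 ± 0.049, adjusted p = 0.011) and Taf9b (-0.18 ± 0.051, adjusted p = 0.022) fell. The call of Taf9b, an X-linked gene, was lost with sex as a covariate (adjusted p = 0.057) and without any 1 of the striata of Trrap-FBΔ mice 57, 59 and 61 (adjusted p up to 0.065). Supt20, Taf9 and Taf10 had no call, with log2 fold changes between -0.16 and -0.002. Of the splicing factors, Sf3b5 rose in the cortex (0.28 ± 0.085, adjusted p = 0.025), a call lost without the cortices of mice 55, 57 or 58 (adjusted p up to 0.059), and Sf3b3 had no call (-0.03 ± 0.076 and 0.03 ± 0.068).

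In TIP60, neither tissue gave a call for the acetyltransferase itself. In the cortex Kat5 was at 58.3, 57.8, 57.2 and 60.9 CPM in controls and at 62.1, 62.5, 59.7 and 62.9 CPM in Trrap-FBΔ mice. Striatal values were 56.1, 57.4, 55.7 and 56.2 CPM in controls and 60.6, 59.03, 59.2 and 61.6 CPM in mutants. The groups of Kat5, the acetyltransferase, overlapped in the cortex and were apart in the striatum, and the log2 fold change was 0.08 ± 0.042 (adjusted p = 0.17) in the cortex and 0.09 ± 0.04 (adjusted p = 0.1) in the striatum. Its scaffold Epc2 (chromosome 2, 49451486 to 49551948), which ties the enzyme to nucleosomes, rose in both tissues. The control cortices had Epc2 at 60.5, 58.9, 58.7 and 61.8 CPM and the Trrap-FBΔ cortices at 74.9, 83.2, 76.1 and 72.1 CPM. For the striatum, 50.2, 55.6, 52.97 and 52.8 CPM in controls compared with 65.04, 66.1, 65.98 and 59.2 CPM in Trrap-FBΔ mice. The groups did not overlap, and the log2 fold change was 0.35 ± 0.05 (adjusted p = 0.000412) in the cortex and 0.28 ± 0.053 (adjusted p = 0.00368) in the striatum. Meaf6, shared with other MYST complexes, rose in the striatum (0.31 ± 0.043, adjusted p = 0.000858) and had 0.11 ± 0.045 (adjusted p = 0.074) in the cortex. Mbtd1, a reader of methylated histone H4, rose in the cortex (0.18 ± 0.057, adjusted p = 0.031), and this call was lost without any 1 of the cortices of mice 57, 58, 59, 60, 63 and 64 (adjusted p up to 0.084). Epc1 and Ing3 had log2 fold changes between -0.002 and 0.142 with no call.

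Among the TIP60 genes Morf4l1, Morf4l2, Mrgbp and Brd8, Morf4l2 (chromosome X, 136732942 to 136743690) fell. Cortical Morf4l2 measured 184, 165, 171 and 177 CPM in controls and 140.4, 136, 136 and 141 CPM in mutants. The control striata had 188, 192, 181 and 195 CPM and the Trrap-FBΔ striata 147, 156, 156 and 149 CPM. All Trrap-FBΔ libraries lay below all controls, and the log2 fold change was -0.33 ± 0.045 (adjusted p = 0.000306) in the cortex and -0.31 ± 0.044 (adjusted p = 0.000842) in the striatum. Morf4l2 is X-linked and the sexes were not evenly split, and with sex as a covariate the log2 fold change was -0.345 (adjusted p = 0.000852) in the cortex and -0.31 (adjusted p = 0.00581) in the striatum. Brd8 rose in the striatum (0.16 ± 0.043, adjusted p = 0.019), which was lost without the striata of Trrap-FBΔ mice 59 or 60 (adjusted p up to 0.060). Morf4l1 and Mrgbp stayed within -0.07 and 0.05 on the log2 scale and had no call.

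In the ATPase and histone exchange module, Ep400 was a DEG in the striatum alone. In the cortex Ep400 was at 92.8, 99.7, 90.3 and 94.8 CPM in controls and at 90.3, 116, 109 and 115 CPM in Trrap-FBΔ mice. Striatal values were 97.5, 82.7, 95.2 and 100.2 CPM in controls and 111, 107, 105 and 110.4 CPM in mutants. In the cortex 3 Trrap-FBΔ libraries lay above the controls and that of mouse 57 below them, and the log2 fold change was 0.19 ± 0.072 (adjusted p = 0.065) in the cortex and 0.21 ± 0.06 (adjusted p = 0.025) in the striatum. Without the cortex of mouse 57 the cortical log2 fold change was 0.27 (adjusted p = 0.00195). The striatal call was lost without the striata of mice 57, 59 or 61 (adjusted p up to 0.068). Dmap1 (chromosome 4, 117674681 to 117682273) and Yeats4 (chromosome 10, 117215221 to 117224507), a reader of acetylated histone H3, rose in both tissues. The control cortices had Dmap1 at 21.1, 23.1, 20.7 and 22.7 CPM and the Trrap-FBΔ cortices at 28.1, 26.7, 26.6 and 27.7 CPM. For the striatum, 22.2, 18.98, 22.2 and 22.01 CPM in controls compared with 27.3, 25.6, 26.4 and 27.03 CPM in Trrap-FBΔ mice. Dmap1 was higher in every Trrap-FBΔ library, and the log2 fold change was 0.315 ± 0.057 (adjusted p = 0.00167) in the cortex and 0.32 ± 0.063 (adjusted p = 0.0045) in the striatum. Cortical Yeats4 measured 53.6, 50.99, 52.05 and 48.8 CPM in controls and 65.4, 61.5, 62.7 and 62.1 CPM in mutants. The control striata had 42.1, 51.5, 50.1 and 45.05 CPM and the Trrap-FBΔ striata 62.5, 58.1, 61.4 and 60.2 CPM. Yeats4 was higher throughout as well, and the log2 fold change was 0.29 ± 0.047 (adjusted p = 0.000833) in the cortex and 0.36 ± 0.066 (adjusted p = 0.00309) in the striatum. Vps72, a chaperone of H2A.Z, rose in the striatum (0.18 ± 0.052, adjusted p = 0.026). This call was lost with sex as a covariate (adjusted p = 0.099) and without the striata of mice 57, 58, 61 or 65 (adjusted p up to 0.078). Ruvbl1, Ruvbl2 and Actl6a had no call, with log2 fold changes between -0.11 and 0.17.

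The effect of the genotype was then compared between the tissues with an interaction term over all 16 libraries. None of the 39 genes passed the threshold in edgeR's test, against 0.437% of all 19438 genes tested, and 5 had an unadjusted p under 0.05. DESeq2 also gave 0, with 7 at an unadjusted p under 0.05, and so did edgeR with the mouse as a block, with 6. The 5 genes were Meaf6 (log2 difference of the effects 0.19 ± 0.06, striatum minus cortex, adjusted p = 0.17), Atxn7l3 (0.17 ± 0.063), Atxn7l2 (0.16 ± 0.076), Taf9b (-0.16 ± 0.067) and Eny2 (-0.13 ± 0.056), the last 4 with adjusted p between 0.28 and 0.41. For Usp22 the difference was 0.20 ± 0.11 (adjusted p = 0.46), so its deeper fall in the cortex was not shown to differ from that in the striatum. The calls made in only 1 tissue are therefore not shown to be particular to it.

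Paralogs can take each other's place in a complex, so their log2 ratio of counts within each library was examined for 6 pairs in both tissues, a measure free of the normalization. The ratio Epc1 to Epc2 was 0.12, 0.13, 0.06 and 0.02 in the control cortices and -0.27, -0.31, -0.32 and -0.18 in the Trrap-FBΔ cortices. In the striatum it was 0.21, 0.08, 0.255 and 0.16 in controls and 0.01, -0.06, -0.10 and 0.05 in Trrap-FBΔ mice. The ratio was lower without overlap in both tissues, by 0.35 and 0.20 in the mean. The ratio Morf4l1 to Morf4l2 was -2.195, -2.35, -2.27 and -2.45 in the control and -2.11, -2.01, -1.77 and -2.05 in the Trrap-FBΔ cortices. In the striata it was -2.60, -2.56, -2.62 and -2.35 and -2.20, -2.25, -1.98 and -2.25. It was higher without overlap, by 0.33 and 0.36 in the mean.

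Each of these 4 differences had p = 0.029 by the exact permutation test (2-sided), the smallest that 4 against 4 libraries allow. After adjustment over the 12 tests it was 0.087, so none passed 0.05. With 4 of the 12 tests at the smallest p, no adjusted value could fall under 0.05, so this does not decide whether the ratios differ. The other 4 pairs had exact p between 0.086 and 0.8 before adjustment. Kat2a to Kat2b differed by -0.04 in the cortex and -0.02 in the striatum, Ruvbl1 to Ruvbl2 by 0.15 and 0.14, Taf9 to Taf9b by -0.13 and 0.14, and Actl6a to Actl6b, the neuronal form, by -0.055 and 0.12. Ratios of counts compare the same pair between groups and not the amounts of its members, since the genes differ in length, and Morf4l1 and Morf4l2 share words with pseudogenes, as given above.

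**Figure D4:**
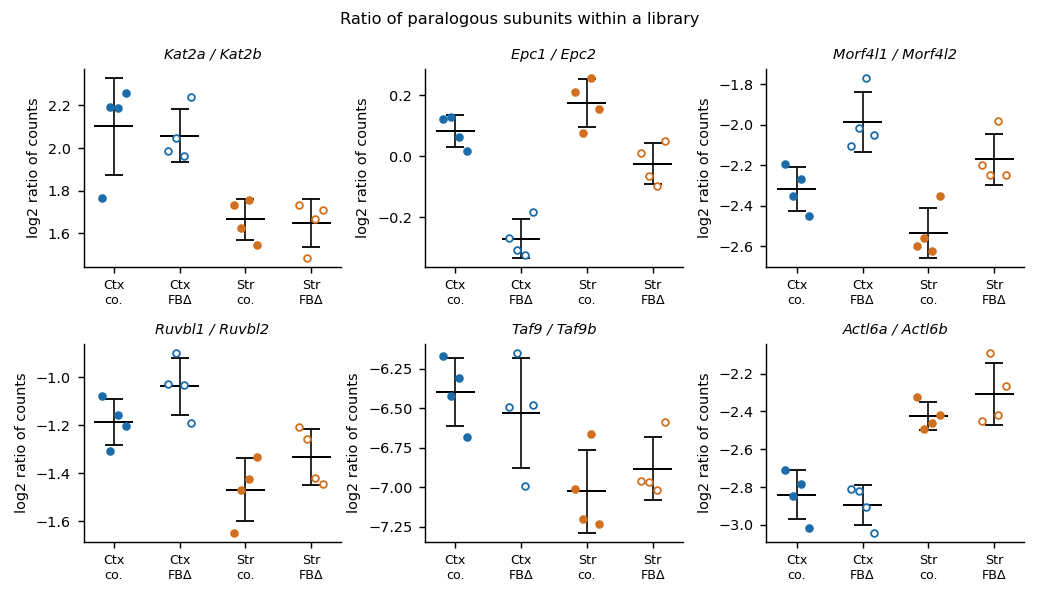
Log2 ratio of the counts of paralogous subunits within each library, for 6 pairs, in the cortex (Ctx, blue) and striatum (Str, orange) of control (co., filled) and Trrap-FBΔ (FBΔ, open) mice, with the mean and SD of 4 libraries. Epc1 to Epc2 is lower and Morf4l1 to Morf4l2 higher in every open point of a tissue than in its filled points, and the other pairs overlap.

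Other complexes share subunits or chemistry with SAGA and TIP60. Of 7 further genes of the ATAC complex, another carrier of KAT2A, the cortex had 3 that rose, the striatum 4, and 0 fell in either. Zzz3 (log2 fold changes of 0.27 ± 0.047 for cortex and 0.20 ± 0.058 for striatum, in that order from here on) and Tada2a (0.23 ± 0.049 and 0.185 ± 0.05), the ATAC counterpart of Tada2b, rose in both. Of 12 TFIID genes 4 rose and 1 fell in the cortex, and 5 rose and 1 fell in the striatum. The DEGs were 42.9% of the ATAC and 41.7% of the TFIID genes in the cortex, against 33.3% of all genes. In the striatum they were 57.1% and 50%, against 30.2%. Taf3 (0.40 ± 0.063 and 0.38 ± 0.081), Taf8 (0.37 ± 0.066 and 0.38 ± 0.055) and the TATA-binding protein gene Tbp (0.27 ± 0.049 and 0.16 ± 0.048) rose in both tissues, and Taf4 (-0.29 ± 0.06 and -0.15 ± 0.05) fell.

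Of 15 genes of SRCAP and INO80, remodelers that exchange or move H2A.Z nucleosomes, 6 rose and 2 fell in the cortex and 6 rose and 1 fell in the striatum. The DEGs were 53.3% of these genes in the cortex, against 33.3% of all genes, and 46.7% in the striatum, against 30.2%. Ino80c rose by 0.47 ± 0.061 and 0.57 ± 0.057 on the log2 scale, Actr5 by 0.34 ± 0.082 and 0.27 ± 0.067 and Nfrkb by 0.215 ± 0.055 and 0.27 ± 0.042, and Znhit1 had -0.44 ± 0.092 and -0.53 ± 0.11. Of 19 genes of other MYST complexes 3 rose and 1 fell in the cortex and 4 rose and 2 fell in the striatum. That is 21.1% in the cortex, below the share of all genes, and 31.6% in the striatum, near that share. The acetyltransferase Kat7 (0.18 ± 0.059 and 0.33 ± 0.066), Brpf1 (0.24 ± 0.053 and 0.20 ± 0.051) and Kansl1 (0.18 ± 0.045 and 0.20 ± 0.041) were higher and Msl1 (-0.235 ± 0.042 and -0.21 ± 0.041) lower in both tissues. Neither Crebbp nor Ep300, acetyltransferases outside these families, had a call. The median log2 fold change in the cortex was 0.22 for ATAC, 0.09 for TFIID, 0.17 for SRCAP and INO80 and 0.045 for the other MYST complexes, and in the striatum 0.185, 0.10, 0.14 and 0.08, beside the medians of all genes given above.

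**Figure D5:**
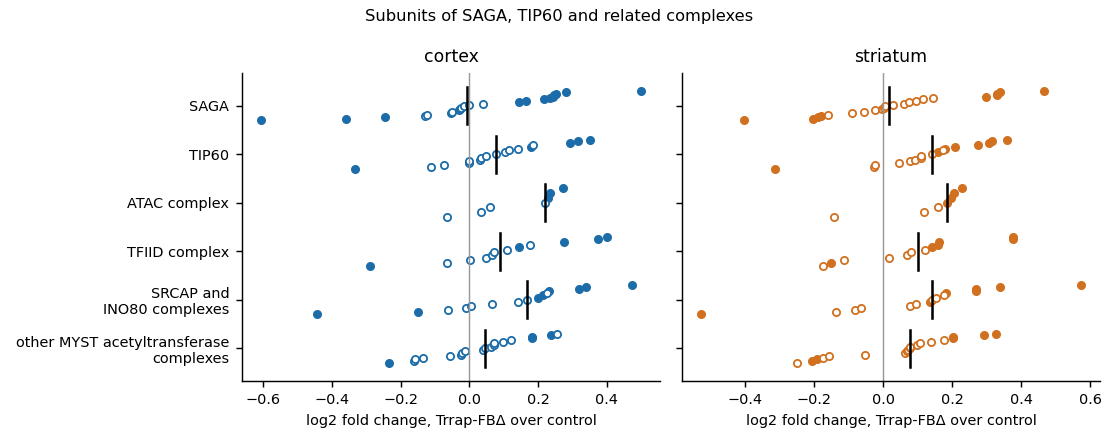
Log2 fold change of the genes of SAGA, TIP60 and related complexes, Trrap-FBΔ over control, in the cortex and the striatum. Each point is 1 gene, filled where the adjusted p was under 0.05, and the black bar is the median of the list, which lies nearest to 0 for SAGA in both tissues.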

How the data were processed

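The authors sequenced stranded mRNA libraries as single 51-base reads, aligned them to GRCm38 with STAR 2.5.4b and counted uniquely mapped reads per Ensembl gene with featureCounts 1.5.0. The deposited values are raw counts, and all tests started from them. Genes with low counts were removed by edgeR's default filter, libraries were scaled by TMM, and each tissue was fitted alone with edgeR 4.0.16 (quasi-likelihood test, R 4.3.3), with p-values adjusted by Benjamini and Hochberg over all genes tested. The interaction was fitted over all 16 libraries and the control tissues over the 8 control libraries. Printed CPM values share 1 TMM scale over the 16 libraries. Errors of log2 fold changes are standard errors. Ratios of paralogs used a pseudocount of 0.5 and the exact permutation test over libraries. The tests were checked on simulated counts.

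The subunits, gene lists and tests were chosen with earlier results of these data known. Values per library are given for the catalytic subunits, for Trrap, for subunits called in both tissues in 1 direction and for paralog pairs, and from other lists at most 4 genes called in both tissues are named, by size. The labels tie cortex and striatum to the same mouse. For 7 such pairs the deviations from the group means correlated at 0.101 to 0.449 (19438 genes), against -0.35 to 0.17 for 25 other pairs. The 24 pairs of libraries within groups differed by more than counting noise. Alternatives were DESeq2 1.42.0, other scalings, filters and thresholds, sex as a covariate, the mouse as a block and each library left out.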

Additional observations from a re-analysis of the deposited data

Results flagged for a closer look

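In 12 of 180 groups of 4 libraries, 156 of subunit genes and 24 of paralog ratios, the highest or lowest library lay far from the other 3 by Dixon's criterion, which chance meets in about 1 of 20 groups.

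In the control striatum of mouse 63, Dmap1 was at 18.98 CPM against 22.01 to 22.23 in the others, Ing3 at 18.29 against 21.17 to 21.66, and Sf3b3 at 59.84 against 72.08 to 74.5. In the control striatum of mouse 64, Epc1 was at 63.19 CPM against 58.09 to 58.86. In the Trrap-FBΔ striatum of mouse 61, Epc2 was at 59.2 CPM against 65.04 to 66.12 and Taf9 at 0.4506 against 0.3473 to 0.3615, and the log2 ratio Taf9 to Taf9b was -6.587 against -7.017 to -6.959.

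In the Trrap-FBΔ cortex of mouse 57, Supt3 was at 9.011 CPM against 10.21 to 10.38 and Atxn7l2 at 31.04 against 28.63 to 28.97. In the control cortex of mouse 64, Tada3 was at 38 CPM against 35.02 to 35.27. In the control cortex of mouse 55, Eny2 was at 88.44 CPM against 83.88 to 84.35, and the log2 ratio Kat2a to Kat2b was 1.766 against 2.186 to 2.259.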

How the results depend on the processing

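At an adjusted p under 0.01, 8 subunit genes were called in the cortex (4 in SAGA), 11 in the striatum (5 in TIP60) and 7 in both tissues. Of all genes, 18.3% were called in the cortex and 15.1% in the striatum at this threshold. Against a fold change of 1.2, the calls were 2 in the cortex, Supt7l and Usp22 (2 in SAGA, 0 in TIP60), 0 in the striatum (0 in each complex), 0 in both tissues and 1 between the control tissues, Atxn7l3. Among all genes this setting called 1381 of 18268 in the cortex, 1364 of 18872 in the striatum and 3438 of 18284 between the control tissues. The share of the subunit genes was thus not above that of all genes here. With 1 library left out, the calls ranged from 11 to 18 in the cortex (SAGA 7 to 12, TIP60 4 to 6), from 14 to 18 in the striatum (SAGA 8 to 10, TIP60 6 to 8), from 9 to 12 in both tissues and from 8 to 13 between the control tissues, with 0 for the interaction. Among all genes, 4734 to 5726 of at least 18438 tested were then called in the cortex. In the striatum 4205 to 5769 of at least 18960 were. The median log2 fold change then ranged from -0.033 to 0.032 for SAGA and from 0.066 to 0.099 for TIP60 in the cortex, and from 0.014 to 0.058 and 0.123 to 0.158 in the striatum. With the mouse as a replicate block, 0 subunit genes were called for the interaction and 11 between the control tissues, where Kat2a was gained, and the block changed no other call. Among all genes the interaction gave 85 calls, 195 without a filter, 429 by DESeq2, 219 with the block, 18 to 151 with 1 library left out, 2 at an adjusted p under 0.01 and 1 against a fold change of 1.2. With upper-quartile scaling 56.3% of its calls were higher, against 44.7%. No call of a subunit gene changed direction under these alternatives. Limits are the 4 libraries per group, small fold changes, the low count of Taf9 and the unequal sexes.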
